A study of Monodelphis domestica and Mus musculus with 2 samples.

Results

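The olfactomedin genes Olfm1, Olfm2 and Olfm3 were described in the primary visual cortex (V1) of the gray short-tailed opossum (Monodelphis domestica) and the mouse. The members were found by symbol, ignoring case, and all 3 were present in both tables, 3 of 30613 features in the opossum and 3 of 61317 in the mouse. They were chosen on measured values of these libraries: Olfm1 was known to fall with depth in the glutamatergic cells of opossum V1, and Olfm2 and Olfm3 were taken as the other members of its family. The depth pattern of opossum Olfm1 is therefore given as a description and supports nothing.

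Stereo-seq is a spatial method in which polyadenylated RNA of a frozen section is captured on an array of barcoded spots and the spots are then joined into segmented cells. The opossum group was 1 section 10 µm thick from 1 adult male of about 6 months with an RNA integrity number of 7.1. The mouse group was 1 section 10 µm thick from 1 adult male wild-type C57BL/6J of about postnatal day 40 with an RNA integrity number above 9. With 1 animal per species there was no replicate, so no test was made. Intervals are 95% exact Poisson intervals that cover counting error only. The 3 opossum and 4 mouse V1 regions are parts of 1 animal per species. More than 1 coronal slice was embedded together, and the paper counts the regions of each species as from more than 1 section. Species, age and RNA quality cannot be told apart.

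The V1 regions held 4806 opossum cells that passed the authors' filter, with 6933475 UMIs and a median of 1326 UMIs per cell, and 9127 mouse cells with 12522687 UMIs and a median of 1305. Depth, from the upper edge of layer 2/3 to the lower edge of layer 6, was set along each region and cut into 3 equal parts, upper, middle and lower, or into 10 equal bins. Median UMIs per cell in these parts were 1198, 1177 and 1700.5 for the opossum, and the mouse had 1141, 1355 and 1496. Of the cell type markers measured, 18 of 23 for the opossum and 19 of 26 for the mouse were highest in a subclass of their own type. The labels were assigned from these same counts, so this is no independent check of them. RNA of 1 cell type was nevertheless counted in others. Gad1, an enzyme of GABA synthesis, stood at 11.6 UMIs per 10000 in GABAergic and 2.36 in glutamatergic opossum cells, and mouse Slc17a7, the vesicular glutamate transporter of cortical excitatory neurons, stood at 10.5 in glutamatergic and 10.8 in non-neuronal cells. The depth axis ran in the labelled direction, with Cux2, a transcription factor of upper layers, 3.24-fold and 5.09-fold higher in the upper part than in the lower part in opossum and mouse, and Foxp2, a transcription factor of layer 6, at 0.179 and 0.0884 times. As the axis was oriented by subclass labels, its direction was not checked independently of them.

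Olfactomedins are secreted glycoproteins that share a C-terminal olfactomedin domain. The proteins of the 3 members, also called noelins, assemble into disulfide-linked complexes and bind the extracellular part of AMPA-type glutamate receptors at synapses. Olfm1, also called pancortin, is an abundant neuronal transcript of the cortex, binds the Nogo receptor, and is made as long forms with the olfactomedin domain and short forms without it.

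In the mouse genome (GRCm39) Olfm1 (ENSMUSG00000026833) lies on chromosome 2 from 28083004 to 28120748 on the plus strand. Of its 10 protein-coding transcripts in the annotation, 3 end at 28104437 and 7 at 28120748, and counts per gene do not separate them. Olfm2 (ENSMUSG00000032172) lies on chromosome 9 from 20578986 to 20657645 on the minus strand. The long noncoding RNA genes Gm68925 and Gm39299 overlap it on the opposite strand over 10944 and 3731 bases, and Gm74850 overlaps Olfm1 over 644 bases. The sources used here do not say whether strand was used in counting, so reads from overlapping genes cannot be told apart and mouse Olfm2 UMIs are uncertain. Olfm3 (ENSMUSG00000027965) lies on chromosome 3 from 114697712 to 114919372 on the plus strand and overlaps no annotated long noncoding RNA gene. Overlaps with genes of other types were not listed for any member. The opossum features were ENSMODG00000013220 for Olfm1, ENSMODG00000040695 for Olfm2 and ENSMODG00000046189 for Olfm3.

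Olfm1 was counted in 82.9% of opossum V1 cells (exact binomial interval 81.8 to 84.0%) and in 69.2% of mouse V1 cells (68.2 to 70.1%). Its level was 23.8 UMIs per 10000 (23.4 to 24.2) in the opossum, with 23.4, 24.1 and 24.1 in regions 1, 2 and 3. In the mouse it was 12.7 (12.5 to 12.9), with 12.6, 11.9, 13.0 and 13.1 in regions 1 to 4. The regions of the 2 species did not overlap (SD over 3 opossum regions 0.418 and over 4 mouse regions 0.558). Regions of 1 animal are not replicates, so the species difference was not tested. The levels also rest on 30613 opossum and 61317 mouse features. Outside the V1 regions Olfm1 stood at 11.0 in 74531 opossum cells and 12.7 in 110881 mouse cells. V1 held 2.17 times the level of the rest of the section in the opossum (2.13 to 2.20) and 1.00 times in the mouse (0.984 to 1.02). The rest is all other cells that passed the filter, and the paper trimmed the opossum slices but not the mouse slices. For all 3 members these ratios are therefore against unlike tissue in the 2 species.

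Olfm1 UMIs were counted in cells of every class. Opossum glutamatergic cells held 24.9 UMIs per 10000, GABAergic cells 18.1 and non-neuronal cells 20.8. Glutamatergic over non-neuronal cells was 1.20 (1.14 to 1.26), with 1.09 to 1.39 in the regions, and glutamatergic over GABAergic cells was 1.37 (1.29 to 1.47), with 1.34 to 1.45. Mouse cells of the 3 classes stood at 12.7, 11.5 and 12.9, and glutamatergic over non-neuronal cells was 0.990 (0.952 to 1.03), within a region range of 0.928 to 1.06. After cells were thinned to 300 UMIs, which left out the 156 opossum and 130 mouse cells with fewer, Olfm1 was counted in 55.2% of the opossum upper intratelencephalic cells labelled IT_A (median 1365 UMIs before thinning) and in 43.0% of oligodendrocytes (median 1077). In the mouse these shares were 31.5% of L2/3 cells (median 1246.5) and 24.1% of oligodendrocytes (median 1367.5). How much of the signal in glia was RNA from neighbouring cells was not tested.

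By subclass label, opossum Olfm1 was highest in the intratelencephalic neurons IT_A, at 29.2 UMIs per 10000 (28.5 to 29.9), with 28.3 to 30.1 in the regions. It was lowest in the corticothalamic neurons L6CT, at 14.0 (13.2 to 14.7), with 13.0 to 14.8. IT_C (28.2), endothelial cells (28.1), oligodendrocyte precursors (27.1) and IT_B (26.8) followed IT_A, and the first label below IT_A to differ from it beyond the spread was oligodendrocytes. These (22.6), Sst interneurons (22.4), astrocytes (21.5), Pvalb interneurons (19.3) and the pyramidal tract neurons L5PT (16.5) came lower. Of 13 pairs of neighbours in this order, only L5PT and L6CT had intervals apart and 1 sign in every region. IT_A over L6CT was 2.09 (1.98 to 2.22), with 2.03 to 2.17 in the regions, and rose to 2.91 with labels of the first classification round alone.

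Mouse Olfm1 varied less between labels. Lamp5 interneurons (14.7), endothelial cells (14.5), near-projecting neurons L5NP (14.3), L2/3 (14.3), microglia (14.1), precursors (13.4) and L4 (13.3) were at one end, and Pvalb (10.8), Sst (10.7) and L5PT (8.37) at the other. L5PT differed from its neighbour Sst beyond the spread, which held for 1 of 16 pairs of neighbours. L2/3 over L6CT was 1.20 (1.14 to 1.27), with 1.11 to 1.35 in the regions.

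**Figure D1:**
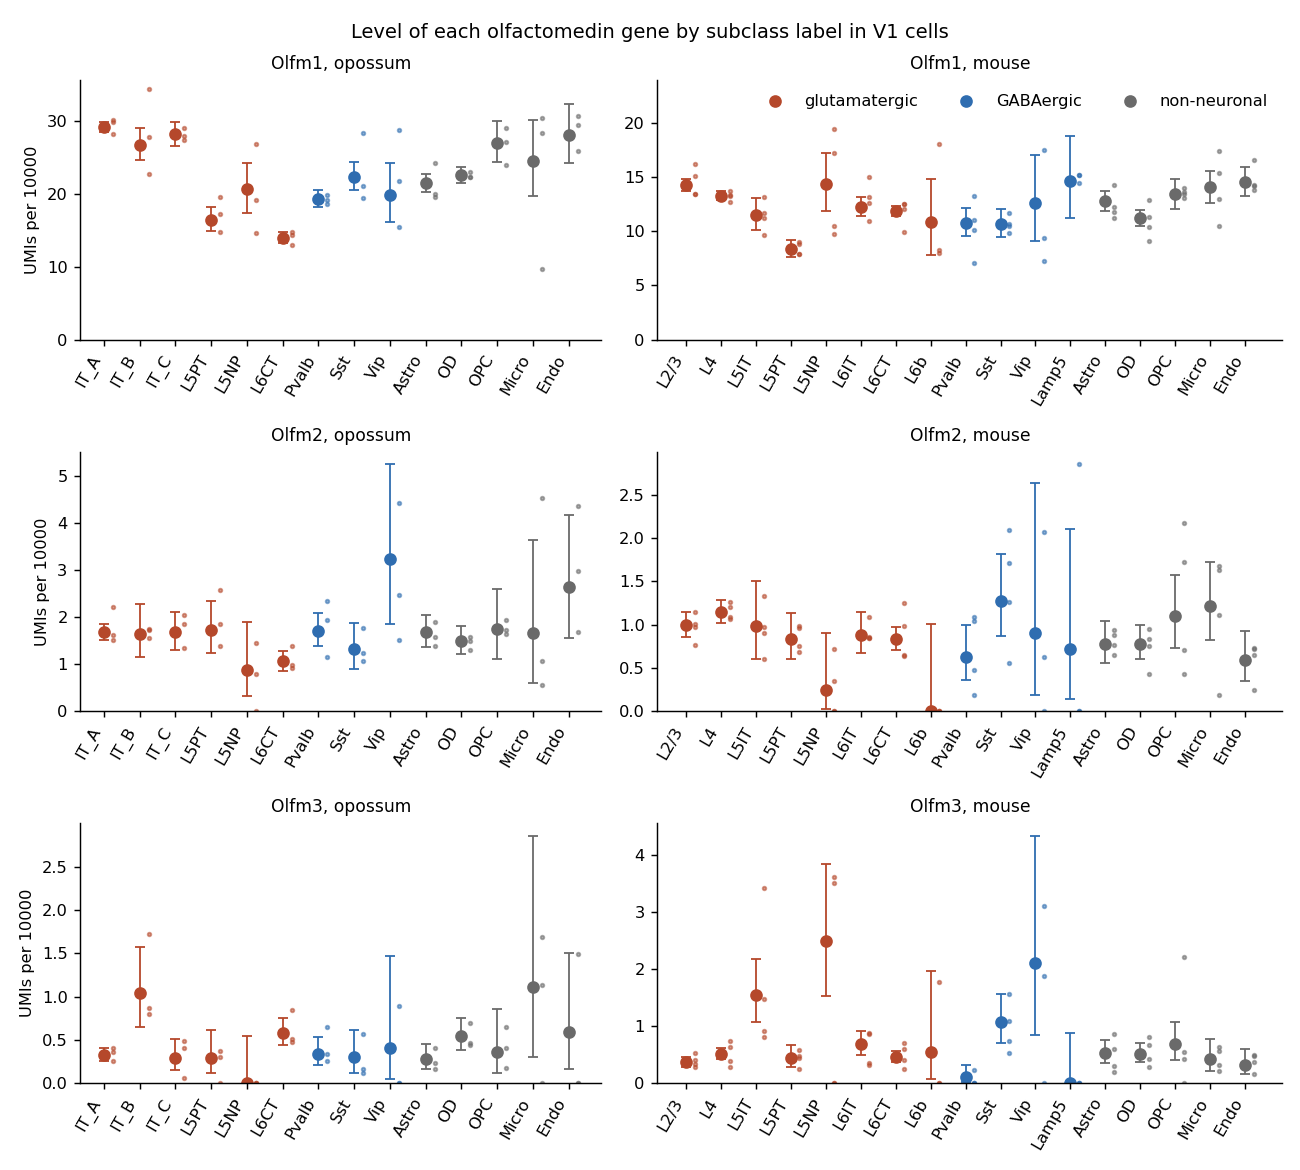
UMIs per 10000 (vertical axes, each panel on its own scale) of Olfm1, Olfm2 and Olfm3 by subclass label in opossum (left) and mouse (right) V1. Large points are levels over all regions with 95% exact Poisson intervals and small points are single regions with at least 5 cells of the label. Olfm1 ranges from 14.0 to 29.2 in opossum cells and from 8.37 to 14.7 in mouse cells, while most intervals of Olfm2 and Olfm3 overlap.

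Along depth, Olfm1 of opossum glutamatergic cells made a plateau and then a fall. From the uppermost bin down its level was 27.8, 31.7, 30.6, 30.2, 30.4, 28.9, 27.0, 21.9, 15.8 and 11.0 UMIs per 10000. The upper 6 bins lay between 27.8 and 31.7, and the lowest bin was at 10.7 to 11.6 in the 3 regions. In the upper, middle and lower part the levels were 29.8, 29.5 and 16.9. Upper over lower part was 1.77 (1.69 to 1.85), with 1.79, 1.70 and 1.87 in regions 1 to 3. The rank correlation of the per-cell level with depth, over 3752 cells of 1 animal, was -0.249, and -0.174 after thinning to 300 UMIs, which left out 128 of these cells. Olfm1 was one of 318 genes of 4484 tested that were at least 1.5-fold higher in the upper part with 1 sign in every region, or 7.09% of genes. As this contrast chose the member, nothing is read from it.

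Non-neuronal cells of the opossum followed the same lower slope. Their Olfm1 level was 16.2 in the uppermost bin, 28.5 in the sixth and 11.6 in the lowest. The levels of glutamatergic and non-neuronal cells were 11.0 and 11.6 in the lowest bin and 27.8 and 16.2 in the uppermost. Upper over lower part was 1.46 in non-neuronal (1.28 to 1.66) and 1.58 in GABAergic cells (1.31 to 1.90).

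The fall was also seen inside subclass labels. In 10 subclasses with at least 10 cells in both the middle and the lower part, Olfm1 was lower in the lower part in each. L6CT cells stood at 27.9 in the middle part (60 cells) and 12.1 in the lower part (463 cells), L5PT at 29.3 (28 cells) and 13.5 (81 cells), and IT_C at 34.6 and 24.8. Astrocytes stood at 24.6 and 15.7 and oligodendrocytes at 30.1 and 17.8. The 45 cells labelled L6CT in the upper part, where this label is not at home, held 32.6, close to the 29.3 of IT_A cells there. Whether RNA from cells around them set these values was not tested.

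**Figure D2:**
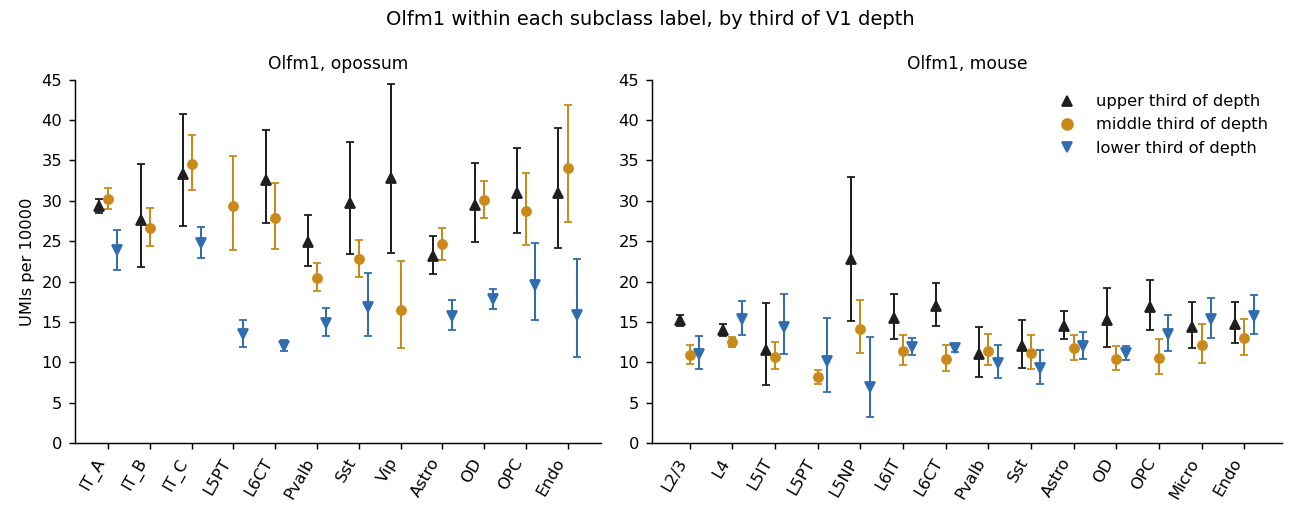
Olfm1 in UMIs per 10000 (vertical axes) within each subclass label of opossum (left) and mouse (right) V1, in the upper (triangle up), middle (circle) and lower (triangle down) part of depth, for labels with at least 10 cells in at least 2 parts. Bars are 95% exact Poisson intervals. In the opossum the lower part is the lowest point of every label that has one, with L6CT at 32.6, 27.9 and 12.1, and in the mouse it is the lowest in L5NP, Pvalb and Sst.

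Mouse Olfm1 took a different course. Over the same 10 bins glutamatergic cells stood at 16.8, 14.9, 14.1, 13.0, 11.3, 9.40, 11.2, 12.2, 12.0 and 12.2 UMIs per 10000. The level was highest at the top, lowest in the sixth bin (8.42 to 10.8 in the 4 regions) and higher again below it. The levels of the upper, middle and lower part were 14.8, 11.1 and 12.1. Upper over lower part was 1.23 (1.18 to 1.29), with 1.21, 1.34, 1.22 and 1.18 in regions 1 to 4, short of the 1.5-fold line that 4.26% of 6099 mouse genes passed upward. The rank correlation with depth over 6245 cells was -0.0688, and -0.0467 after thinning, which left out 72 of them. Non-neuronal cells had their lowest level, 9.81, in the same sixth bin. The middle part stood at 0.826 times the rest of depth in the mouse (0.792 to 0.861) and at 1.28 times in the opossum (1.24 to 1.33). The opossum middle part, at 29.5, was not above the upper part, at 29.8, and its ratio passed 1 through the low lower part, at 16.9. As that fall chose the member, nothing is read from the opossum ratio. The cut into middle part and rest was chosen after seeing the data.

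**Figure D3:**
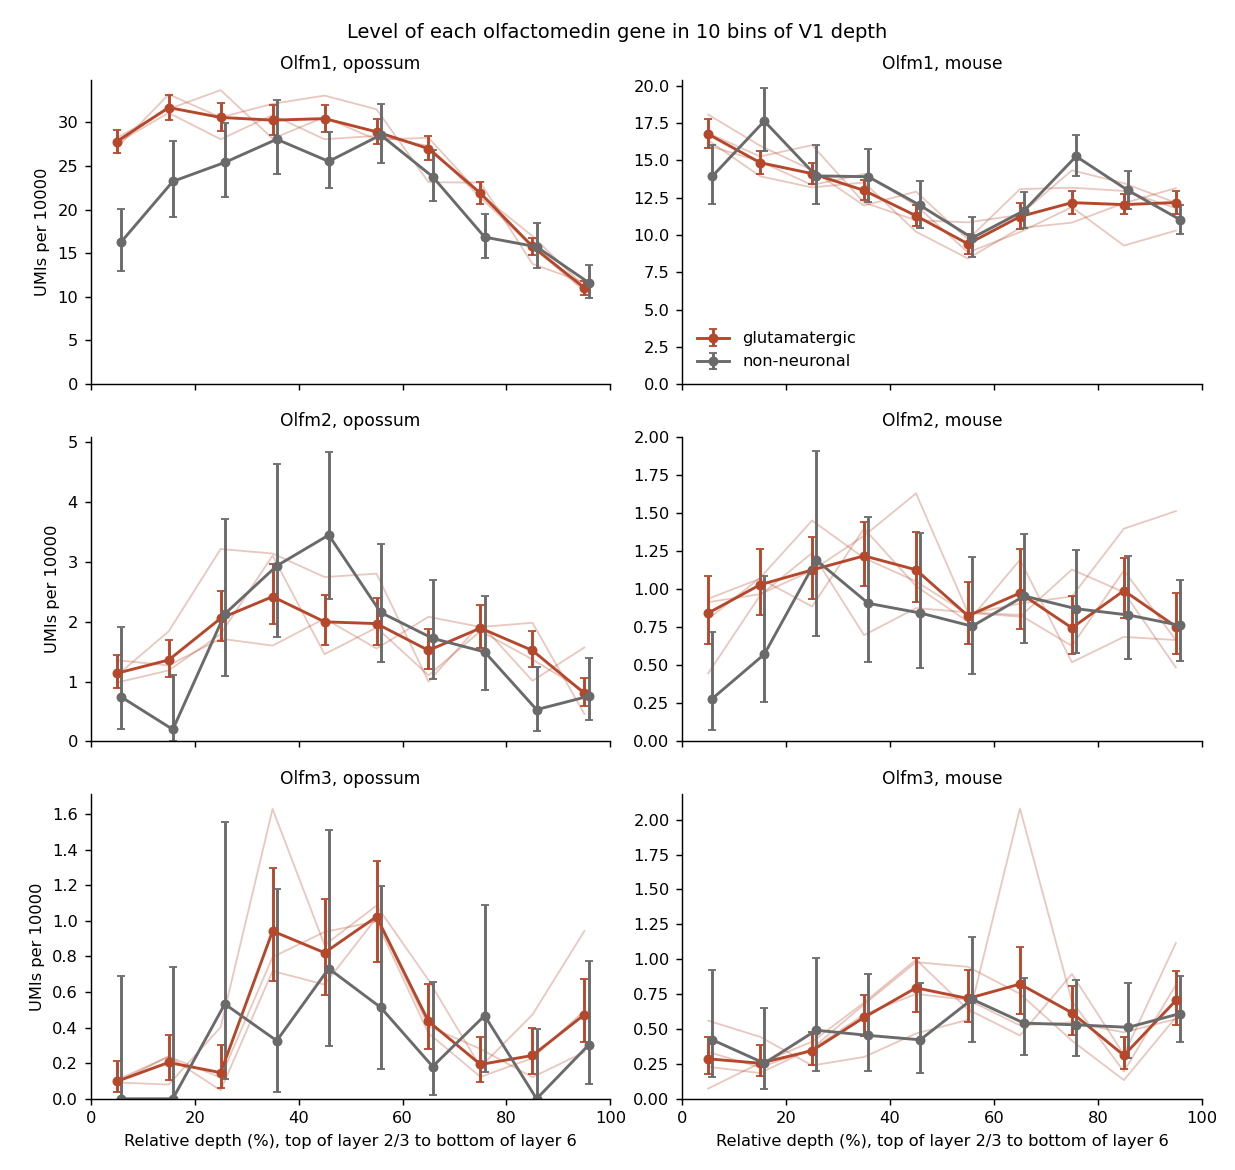
UMIs per 10000 (vertical axes, each panel on its own scale) against relative depth in percent for Olfm1, Olfm2 and Olfm3 in opossum (left) and mouse (right). Points with bars are glutamatergic (red) and non-neuronal (grey) cells over all regions with 95% exact Poisson intervals, and pale lines are glutamatergic cells of single regions. Opossum Olfm1 falls to 11.0 at the bottom, mouse Olfm1 has its lowest value of 9.40 between 50 and 60% of depth, and opossum Olfm3 stands near 0.8 to 1.0 between 30 and 60%.

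Because subclasses lie at different depths, the UMIs of each subclass were also set against the number expected from the other cells of the same region and depth (20 bins per region). This comparison was chosen after seeing the data. Its intervals take the expected number as fixed and leave out the counting error of the other cells, so they are too narrow. L5PT neurons, which project to subcortical targets, were low in both species. They held 0.725 times the expected Olfm1 UMIs in the opossum (0.655 to 0.801), with 0.635 to 0.825 in the regions, and 0.772 times in the mouse (0.699 to 0.849), with 0.705 to 0.846. L5PT cells also had many UMIs, with medians of 1894 and 1902, and Olfm1 was lower per UMI in the third of cells with most UMIs (21.6 against 26.4 in the third with fewest in the opossum, 12.0 against 13.4 in the mouse). Matched on UMIs per cell as well as depth, the ratios were 0.757 and 0.778.

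In the opossum IT_C was above its surroundings at 1.25 (1.18 to 1.33), IT_A at 1.1 (1.07 to 1.12) and oligodendrocytes at 1.12 (1.06 to 1.17). Pvalb interneurons at 0.768 (0.722 to 0.815), Sst interneurons at 0.842 (0.772 to 0.917), astrocytes at 0.872 (0.825 to 0.921) and L6CT at 0.874 (0.828 to 0.921) were below. In all 3 regions these ratios lay on the same side of 1. In the mouse Sst interneurons stood at 0.874 (0.771 to 0.987) and endothelial cells at 1.14 (1.04 to 1.25), on 1 side of 1 in all 4 regions, and L2/3 (0.979), L4 (1.03), L6IT (0.995), L6CT (0.968) and astrocytes (1.00) had intervals that held 1.

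**Figure D4:**
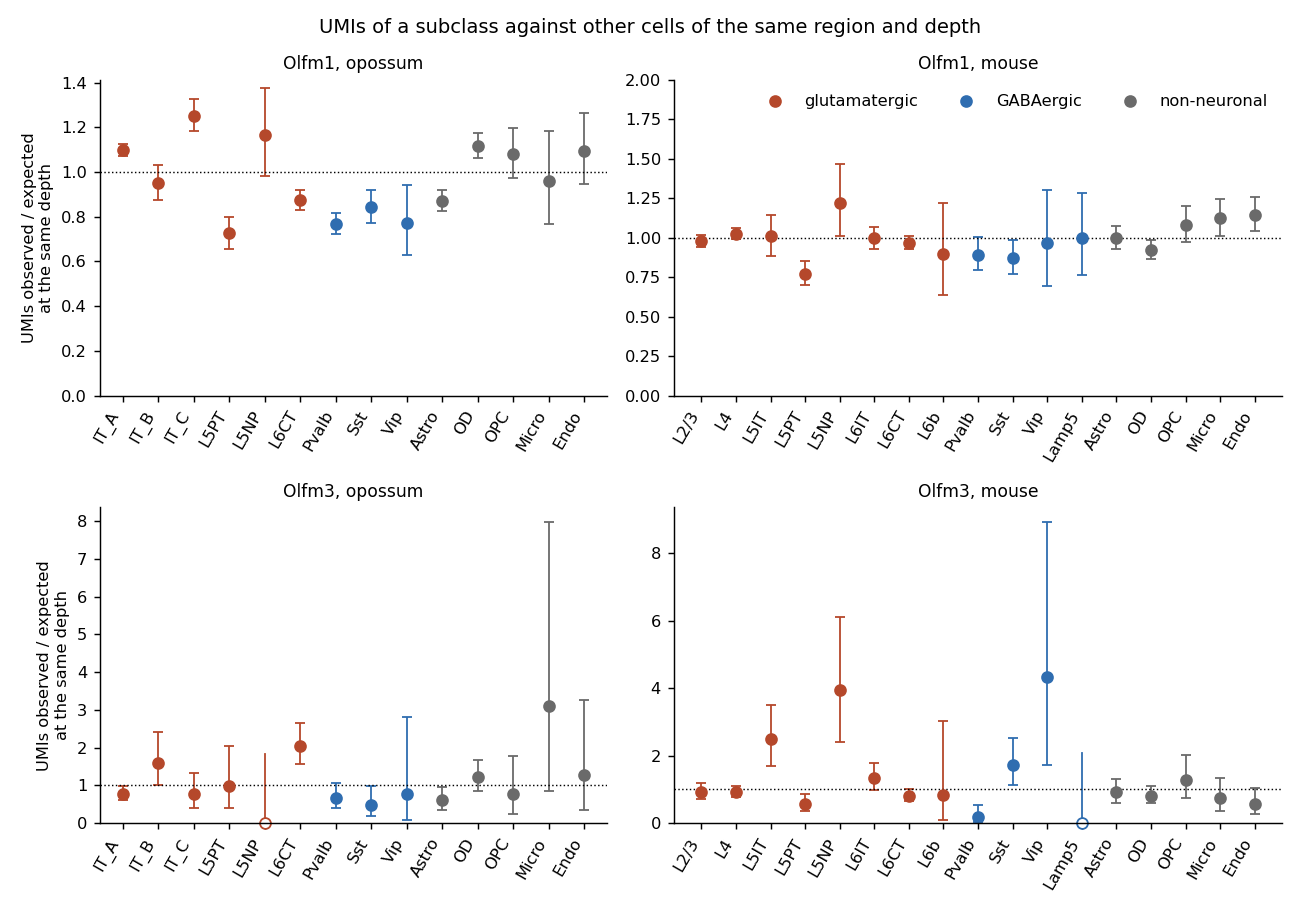
UMIs of Olfm1 (top) and Olfm3 (bottom) in each subclass divided by those expected from other cells of the same V1 region and depth, in opossum (left) and mouse (right). Bars are 95% exact Poisson intervals of the observed UMIs, with the expected number taken as fixed. The dotted line marks a ratio of 1, and open points are subclasses with no UMI. L5PT lies below 1 for Olfm1 in both species (0.725 and 0.772). Olfm3 lies above 1 in opossum L6CT (2.05) and in mouse L5IT (2.48) and L5NP (3.95, with 0 to 5.92 in the regions).

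Olfm2 was counted in 14.5% of opossum V1 cells and 9.57% of mouse V1 cells. Its level was 1.61 UMIs per 10000 (1.52 to 1.71) in the opossum, with 1.54, 1.53 and 1.92 in regions 1 to 3, and 0.940 (0.887 to 0.995) in the mouse, with 0.852, 0.861, 1.09 and 1.01 in regions 1 to 4. All 3 opossum regions were above all 4 mouse regions, with the limits given for Olfm1. V1 held 1.30 times (1.22 to 1.38) the level of the rest of the opossum section and 1.6 times (1.5 to 1.70) that of the mouse section.

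Olfm2 showed little order by label. Glutamatergic over non-neuronal cells was 0.995 (0.831 to 1.20) in the opossum and 1.21 (1.03 to 1.42) in the mouse. No pair of neighbours in the order of subclasses differed beyond its spread in either species (0 of 13 and 0 of 16). Opossum Vip interneurons were highest at 3.24 on 16 UMIs (1.85 to 5.26), L6CT stood at 1.06 (0.870 to 1.28) and IT_A over L6CT was 1.59 (1.28 to 1.99), with 1.55 to 1.76 in the regions. In the mouse Sst (1.28), microglia (1.21) and L4 (1.15) were highest, L5NP stood at 0.249 on 2 UMIs, and L6b had 0 UMIs in 26 cells, which allows a level of up to 0.818 (3 UMIs over the group).

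Opossum Olfm2 was higher in the middle of the cortical depth, by a cut into middle part and rest that was chosen after seeing the data. Glutamatergic cells went from 1.14 in the uppermost bin to 2.42 in the fourth and 0.805 in the lowest, and the 3 regions held 1.6 to 3.14 in the fourth bin. The upper, middle and lower parts stood at 1.57, 1.96 and 1.37. Middle part over the rest was 1.34 (1.16 to 1.54), with 1.40, 1.21 and 1.41 in the regions, and in non-neuronal cells, whose level was 0.747 at the top, 3.45 in the fifth bin and 0.755 at the bottom, it was 2.24 (1.58 to 3.19). Mouse glutamatergic cells ranged from 0.747 to 1.22 over the bins, and middle part over the rest was 1.06 (0.921 to 1.23). Upper over lower part was 1.15 (0.969 to 1.36) for the opossum and 1.19 (1.01 to 1.41) for the mouse, and the gene was past 1.5-fold in neither.

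Olfm3 was the sparsest member, with 289 UMIs in opossum V1 and 669 in mouse V1. Its level was 0.417 (0.370 to 0.468) UMIs per 10000 in the opossum, with 0.371, 0.399 and 0.546 in regions 1 to 3, and 0.534 (0.495 to 0.576) in the mouse, with 0.501, 0.560, 0.571 and 0.537 in regions 1 to 4. Opossum region 3 lay among the mouse regions. Cells with a UMI made up 4.54% and 5.11%. V1 held 0.908 times (0.803 to 1.02) the level of the rest of the opossum section and 1.13 times (1.04 to 1.22) that of the mouse section.

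Olfm3 was higher in the middle part of the cortical depth than in the rest in each species, again by the cut chosen after seeing the data. Opossum glutamatergic cells held 0.0976, 0.204 and 0.147 in the 3 uppermost bins, 0.943, 0.821 and 1.02 between 30 and 60% of depth, and 0.435, 0.193, 0.243 and 0.473 below. The level rose at 30% in each region, with at most 0.402 in the third bin and at least 0.718 in the fourth. These values rested on few UMIs, 1, 2 and 4 in the third bin of regions 1 to 3 and 13, 10 and 14 in the fourth. The intervals were apart in region 1 and overlapped in regions 2 and 3. Middle part over the rest of depth was 3.08 (2.36 to 4.03), with 3.50, 2.91 and 2.74 in regions 1 to 3, and 1.93 after thinning to 300 UMIs. Mouse cells held 0.286, 0.255 and 0.345 in the 3 uppermost bins, 0.583 to 0.822 between 30 and 80%, 0.311 in the ninth bin and 0.704 in the lowest. Middle part over the rest was 1.76 (1.46 to 2.12), with 1.71, 1.59, 1.36 and 2.56 in regions 1 to 4.

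Upper over lower part of Olfm3 was 0.631 (0.410 to 0.958) in the opossum, with 0.643, 0.862 and 0.40 in the regions, on 103 UMIs, under the minimum of 200 for a count among all genes. In the mouse it was 0.636 (0.489 to 0.825), with 0.624, 0.737, 0.458 and 0.859 in the regions. Of the members tested, 0 of 2 for the opossum and 1 of 3 for the mouse, Olfm3, were at least 1.5-fold lower in the upper part with 1 sign in every region, beside 5.93% and 3.46% of all genes. None of the 3 mouse members was called in the other direction.

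The label order of Olfm3 rested on few UMIs. In the opossum it stood at 1.04 in IT_B (22 UMIs, 0.650 to 1.57), with 0.80 to 1.72 in the regions, and at 0.322 in IT_A (0.253 to 0.404). These labels lie at different depths, and in the middle part IT_B stood at 1.14 (0.704 to 1.74) and IT_A at 0.637 (0.463 to 0.855). IT_B held 1.59 times the UMIs expected at its depth (0.999 to 2.41) and 1.51 times (0.948 to 2.29) matched on UMIs per cell as well. Both intervals held 1. Microglia had 1.12 on only 4 UMIs. L6CT held 0.581 (0.441 to 0.751) and 2.05 times the UMIs expected at its depth (1.56 to 2.65), with 1.23 to 3.45 in the regions, and L5NP had 0 UMIs in 39 cells, which allows a level of up to 0.439 (3 UMIs over the group). In the mouse it was highest in L5NP, at 2.49 on 20 UMIs (1.52 to 3.85). Regions 2 and 3 had none there, and the highest region stood at 3.61. Vip followed at 2.11 on 7 UMIs, L5IT at 1.55 (1.07 to 2.17), with 0.803 to 3.42 in the regions, and Sst at 1.07 (0.700 to 1.57), with 0.523 to 1.57. Pvalb stood at 0.110 on 3 UMIs (0.0227 to 0.322), L2/3 at 0.369 and L6CT at 0.460. L5IT was the highest label to differ beyond its spread from another, which was L6IT at 0.686.

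At matched depth, mouse L5NP held 3.95 times the expected Olfm3 UMIs (2.41 to 6.10), with 0 to 5.92 in the regions. L5IT held 2.48 times (1.71 to 3.49), with 1.11 to 5.90, and Sst 1.73 times (1.13 to 2.53), with 0.773 to 2.80. Pvalb held 0.189 times (0.0389 to 0.551), with 0 to 0.424. L5PT, which shares layer 5 with L5IT and L5NP, held 0.567 times (0.355 to 0.859), with 0.364 to 0.747 in the regions. Matched on UMIs per cell as well, these ratios were 3.89, 2.53, 1.93, 0.181 and 0.602. Cells with at least 3 Olfm3 UMIs were rare, 12 of 4806 in the opossum and 49 of 9127 in the mouse. Of the 49, 8 were L4, 6 L5IT, 6 L6IT and 3 L5NP. The share was 8.0% in Vip (2 of 25 cells, exact binomial interval 0.984 to 26.0%), 5.0% in L5NP (1.04 to 13.9%), 4.44% in L5IT (1.65 to 9.42%), 1.78% in Sst (0.368 to 5.10%) and 1.41% in L6IT (0.520 to 3.05%). It was 0.406% in L4 (0.176 to 0.799%) and 0.139% in L2/3 (0.0168 to 0.501%), and none of the 174 Pvalb cells had 3. The intervals of Vip, L5NP, L5IT, Sst and L6IT overlapped. The highest count in a cell was 10, in an L6IT cell.

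The 3 members were also set against each other. Over depth bins of glutamatergic cells, Pearson's r between Olfm1 and Olfm3 was 0.22 for the opossum and -0.77 for the mouse, and between Olfm1 and Olfm2 it was 0.58 and 0.12. These 10 points share libraries and neighbouring tissue and are a description. Over subclasses (14 in the opossum, 17 in the mouse) r between members lay between 0.16 and 0.41 and between -0.07 and 0.09. After thinning, cells with UMIs of both Olfm1 and Olfm2 numbered 104 in the opossum against 97.5 expected from their shares within subclass, and 59 in the mouse against 56.9. Both expected numbers lay inside the Poisson intervals of the counts (85.0 to 126 and 44.9 to 76.1).

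Of 10 other genes with an olfactomedin domain, 8 had a feature in the opossum and 2 reached the minimum of 200 UMIs in the upper and lower parts. Both are latrophilins, adhesion receptors of synapses: Adgrl3 was 1.57-fold higher in the upper part (1.43 to 1.96 over the regions, as in the ranges that follow) and Adgrl2 was lower, at 0.312 times (0.244 to 0.767). In the mouse all 10 had a feature, 3 were tested and none passed 1.5-fold. The shares of all genes past 1.5-fold given above are the background for this list, and a difference from them was not tested. Olfm4, Olfml1, Olfml2a, Myoc and Gldn had 1 to 42 UMIs in opossum V1 and 5 to 71 in mouse V1.

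Of 18 genes of the AMPA receptor complex, 12 were found by symbol and 10 were tested in the opossum. Gria4, a pore subunit, was 3.76-fold higher in the upper part (3.56 to 3.98), Cacng3, an auxiliary subunit, 1.81-fold (1.57 to 2.35) and the pentraxin Nptx2, which clusters the receptors, 2.29-fold (1.92 to 2.58). Nptx1, another pentraxin, stood at 0.50 times (0.432 to 0.525) and the auxiliary subunit Cnih3 at 0.453 times (0.370 to 0.802), and the other 5 stayed within 1.5-fold. In the mouse 14 of 18 were tested, and only Nptxr, the pentraxin receptor, at 1.62-fold (1.31 to 1.88), and Nptx1, at 0.601 times (0.555 to 0.647), passed. The medians of the tested genes were 1.23 and 1.17, beside 0.978 and 0.988 over all genes tested. Of all opossum genes tested, 7.09% were at least 1.5-fold higher in the upper part with 1 sign in every region, and 5.93% lower. For mouse genes these shares were 4.26% and 3.46%. Whether the AMPA receptor list differed from these shares was not tested.

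Of 8 Nogo receptor genes, 3 were tested in the opossum. Rtn4rl1, a homologue of the Nogo receptor, was 3.46-fold higher in the upper part (2.61 to 4.39) and Lingo1, its co-receptor, 2.30-fold (2.08 to 2.82), while Rtn4, which encodes Nogo, stood at 0.942 times. In the mouse 6 were tested, with Rtn4rl1 2.76-fold higher (1.93 to 4.05) and the myelin protein gene Mag lower, at 0.616 times (0.266 to 0.892). Mouse Lingo1 stood at 1.35 times (1.31 to 1.39). The shares over all genes given above apply here too, and whether this list differed from them was not tested.

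The genes most like each member were taken from those with at least 500 UMIs in V1. Over 10 depth bins, opossum Olfm1 was nearest to LINGO1 (r = 0.959), FAM234B, SNX32, KCTD16 and LMTK2, and over 14 subclasses to FAM234B (0.798), ARPP21, LINGO1, VSTM2L and CDH12, so that FAM234B and LINGO1 were on both lists. Mouse Olfm1 was nearest over depth to Actn4 (0.969), Fzd3, Scn3a, Egr2 and Crtac1 and over 17 subclasses to Ppp3ca (0.868), Grasp, Nr2f1, Sesn1 and Camta2. Opossum Olfm2 was nearest over depth to SLC17A6 (0.921), GLO1, TSHZ3, DYNLL2 and SPTB and over subclasses to PELI3 (0.920), GOLM2, TMEM259, ATG2B and DPH5. Mouse Olfm2 was nearest to Tmem65 (0.927), Nrn1, Ccdc136, Nr4a1 and Nuak1 over depth and to Bfar (0.948), Armcx4, Exoc5, Cdc37l1 and Cdk17 over subclasses.

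Opossum Olfm3 was nearest over depth to GFUS (0.957), TMEM135, PPIB, SOX8 and FURIN and over subclasses to MCF2L2 (0.894), ZMPSTE24, CDK13, ISM1 and PPTC7. Mouse Olfm3 was nearest to Peg13 (0.920), Mlf2, Phf1, Syp and Uba3 over depth and to Rpl35 (0.901), Sgsm3, Adcy2, Eid2 and Zcchc18 over subclasses. With sparse counts over 10 to 17 points, and 2651 to 5497 genes compared, high coefficients arise for some genes in any case.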

How the data were processed

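The authors made gene-by-cell tables from Stereo-seq reads with the SAW workflow, aligning mouse reads to GRCm39 and opossum reads to ASM229v1 with extended 3′ ends, and deposited raw UMI counts per segmented cell with coordinates, V1 regions, a filter (at least 50 genes and 100 UMIs) and class and subclass labels transferred over 3 rounds of nearest-neighbor classification. Doublet removal in these sections is not given in the sources used here, and none was run. The tables shared 0 cell barcodes. Levels are summed member counts per 10000 summed UMIs with exact Poisson intervals, and ratios of summed levels have exact conditional intervals (Python 3.11.15, SciPy 1.17.1). Ratios to an expected number have the Poisson interval of the observed count divided by that number, which was taken as fixed. Depth ran along the side of the smallest rectangle around each region, oriented from IT_A or L2/3 to L6CT cells. The fold table was tested on simulated data. Named genes were the members, listed genes past 1.5-fold, the 5 most correlated genes (log2 of the level plus 0.1 over subclasses with at least 25 cells, the level over depth bins) and axis markers. Listed genes within 1.5-fold that are named were picked after their values were seen. Labels were said to differ only with intervals apart and 1 sign in every region with at least 5 cells of both. The members and lists were chosen with earlier results of these data known. Alternatives covered cell filters, thinning, weighting, the denominator, labels, depth cuts and regions.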

Additional observations from a re-analysis of the deposited data

Results flagged for a closer look

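The middle part of depth against the rest, in glutamatergic cells, went opposite ways for Olfm1: it was 1.28 in the opossum, with all 3 regions above 1, and 0.826 in the mouse, with all 4 regions below 1. The difference was not tested, since each species was 1 animal, and this cut of depth was chosen after seeing the data. Without region 2 the opossum value was 1.33, and after thinning to 300 UMIs the mouse value was 0.881.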

How the results depend on the processing

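Of the alternative values for levels, ratios, correlations and counts, 209 stayed within a set range of the main value and 38 moved past it. The range was the counting interval of the main value for levels and ratios. For correlations it was the SD over regions, and for counts 1.5 times. The rank correlation of Olfm2 with depth, close to 0, turned its sign after thinning to 300 UMIs in both species, from 0.0315 to -0.0106 in the opossum and, within the spread between regions, from 0.0117 to -0.0163 for the mouse. Thinning gave levels of 25.4, 1.72 and 0.509 for opossum Olfm1, Olfm2 and Olfm3 and 12.9 for mouse Olfm1, correlations with depth of -0.174 and 0.0248 for opossum Olfm1 and Olfm3 and -0.0467 and 0.0222 for the mouse genes, an upper over lower part of 1.16 for mouse Olfm1, glutamatergic over non-neuronal ratios of 0.798 and 0.788 for opossum Olfm2 and Olfm3 and 1.04 for mouse Olfm1, and 2.28 for opossum Olfm2 in IT_A over L6CT. Weighting cells equally gave levels of 25.1 and 0.483 for opossum Olfm1 and Olfm3 and 13.0 for mouse Olfm1, 1.26 for opossum Olfm1 in glutamatergic over non-neuronal cells, and 1.86 and 0.332 for opossum Olfm1 and Olfm3 in IT_A over L6CT. Leaving the 20 genes of most UMIs out of the total gave 25.9 and 1.76 for opossum Olfm1 and Olfm2 and 13.8, 1.02 and 0.582 for mouse Olfm1, Olfm2 and Olfm3. Labels of the first round gave 2.91 for opossum Olfm1 in IT_A over L6CT and 1.34 for mouse Olfm1 in L2/3 over L6CT, and upper over lower part with depth cut at its middle gave 1.48 for opossum Olfm1. Without each region in turn, glutamatergic over non-neuronal Olfm1 ran from 1.16 to 1.27 for the opossum and from 0.972 to 1.04 for the mouse (highest without region 1 in both), and the mouse Olfm2 level from 0.900 to 0.996. With a minimum of 50 summed UMIs 740 opossum genes were higher and 756 lower in the upper part, and with 500 these were 132 and 92. The mouse counts were 614 and 448, then 108 and 92. The causes were not tested, apart from the counts, which hold more or fewer genes by construction. No paired analysis was possible because each group was 1 sample.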
